A study of Mus musculus with 6 samples.

Results

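The CHD genes, Chd1 to Chd9, encode the chromodomain helicase DNA-binding proteins, a family of chromatin remodellers. All 9 members were found by gene symbol among the 55401 gene identifiers of a table of read counts from mouse pancreatic islets, and all 9 passed the filter on low counts that left 14212 genes for testing. The family was chosen by the measured value of Chd5, which had already passed the test between the groups of these same libraries, so every value of Chd5 between the groups is given as a description and not as a test. The other members were taken by name. The table held 3 control libraries, from mice of genotype Pdgfra fl/fl Pdx1-Cre-, and 3 libraries labelled KO, from Pdgfra fl/fl Pdx1-Cre+ mice. All mice were male, on the C57BL/6 background and aged about 20 weeks, and controls and KO alike carried the floxed Pdgfra allele, the gene of a receptor for platelet-derived growth factor. The Pdx1 promoter drives Cre in the pancreatic lineage and not in beta cells alone, and no group with Cre and unfloxed Pdgfra was analysed here, so an effect of Cre and one of the deletion cannot be told apart.

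CHD proteins carry a pair of chromodomains, which read modified histone tails, and an ATPase motor of the SNF2 type, which uses ATP to slide, space or evict nucleosomes. They fall into 3 classes. Chd1 and Chd2 act mainly at transcribed genes. Chd3, Chd4 and Chd5 carry PHD fingers and serve as alternative motors of the NuRD complex, which joins nucleosome remodelling to histone deacetylation, while Chd6 to Chd9 form a class of large proteins that includes the developmental regulators Chd7 and Chd8. Chd5 is known as a gene of the nervous system and testis and as a tumour suppressor, and Chd4 is the widely expressed NuRD motor.

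The stretch of coding sequence around the DEAH box, the ATP-hydrolysing motif of the motor, shows how alike the 9 members are in this window. It was read from GENCODE vM21 transcripts (GRCm38), 60 bases per member on the coding strand, with the codons of the DEAH box in capitals.

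Chd1: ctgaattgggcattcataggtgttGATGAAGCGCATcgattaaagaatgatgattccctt

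Chd2: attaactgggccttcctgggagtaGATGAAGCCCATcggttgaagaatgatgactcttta

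Chd3: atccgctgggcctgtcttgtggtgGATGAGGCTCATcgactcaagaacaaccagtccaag

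Chd4: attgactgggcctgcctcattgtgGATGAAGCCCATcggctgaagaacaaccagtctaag

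Chd5: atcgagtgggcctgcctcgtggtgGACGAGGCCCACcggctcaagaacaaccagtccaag

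Chd6: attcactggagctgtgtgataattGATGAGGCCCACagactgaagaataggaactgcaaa

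Chd7: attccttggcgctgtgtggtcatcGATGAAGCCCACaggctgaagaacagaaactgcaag

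Chd8: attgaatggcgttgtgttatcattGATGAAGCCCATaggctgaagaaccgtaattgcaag

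Chd9: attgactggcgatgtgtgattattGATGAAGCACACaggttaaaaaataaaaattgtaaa

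In this window Chd5 was identical to Chd3 at 51 of the 60 bases and to Chd4 at 51. Its identity to Chd1 and to Chd9 was 34 bases each. Chd6 and Chd7 shared 49 bases, as did Chd7 and Chd8, and Chd1 and Chd2 shared 45. Over all annotated transcripts the longest run that Chd5 shared letter for letter with Chd4 was 30 bases and with Chd3 29 bases, and no pair of members shared a run of 50 bases. The longest run in the family was 35 bases, between Chd3 and Chd4. How multi-mapping reads were handled is not given in the sources used here, and reads taken for another member were not assessed.

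The libraries held 15026094 to 25299689 counts. The labels give the tissue as islet and the cells as beta cells. All 10 beta-cell markers were detected, but acinar markers, mainly digestive enzymes, were abundant too. The summed level of 14 acinar markers ran from 161573 to 417061 CPM in controls and from 142998 to 279889 in KO, where CPM is the count scaled to library size with TMM factors. A ribosomal RNA locus took 3.32% to 4.51% of counts in controls and 5.36%, 12.6% and 18.5% in KO 1, 2 and 3, so the groups did not overlap in this share. In CPM, whose log2 serves as a covariate below, they did overlap, with 52851 in control 1 and 52225 in KO 1. Pdgfra itself had a log2 fold change of -0.26 (edgeR adjusted p = 0.869, SE 0.34). Its counts sum over all exons, retained or deleted, and so gave no check of the labels. Titles number the mice within a group but do not state that they are separate animals, and p-values measure only the spread between these libraries, which may be technical.

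Chd5 was the CHD gene that stood apart between the groups. Chd5 (ENSMUSG00000005045.16, plus strand of chromosome 4, 152338651 to 152390194, GRCm38, with 43 merged exons over 9583 bases) was read 328, 521 and 897 times in controls 1, 2 and 3, against 286, 169 and 428 times in KO 1, 2 and 3. Scaled, these were 26.3, 30.4 and 29.6 CPM in controls and 11.5, 10.5 and 16.3 CPM in KO. Every KO library lay below every control, with KO 3 the highest of the KO libraries. The mean went from 28.7 ± 2.14 CPM to 12.8 ± 3.09 CPM (SD, n = 3 each), that is, it fell by 55.6%. The exact 95% Poisson interval ran from 9.01 to 12.3 CPM for KO 2, the library with the fewest Chd5 counts, and from 27.6 to 31.5 CPM for control 3, that with the most. These intervals cover counting error only.

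The value that chose Chd5 was a log2 fold change of -1.16 (SE 0.16, 95% interval -1.52 to -0.81) at an edgeR adjusted p of 0.0451. It ranked 10 by p among the tested genes and was the last of the 10 genes inside the threshold of 0.05, the next gene having an adjusted p of 0.0665. The direction held in every fit and the call did not. The log2 fold change ran from -1.38 to -1.05 when each library was left out in turn, and the adjusted p stayed under 0.05 only without KO 3, at 0.00381, reaching 0.108 without control 1, 0.260 without control 2, 0.126 without control 3, 0.155 without KO 1 and 0.147 without KO 2. With the log2 CPM of the ribosomal RNA locus as a covariate Chd5 stood at -1.36 (adjusted p = 1.00, SE 0.28), and with the acinar markers as a covariate at -1.24 (adjusted p = 0.00441, SE 0.12).

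**Figure D1:**
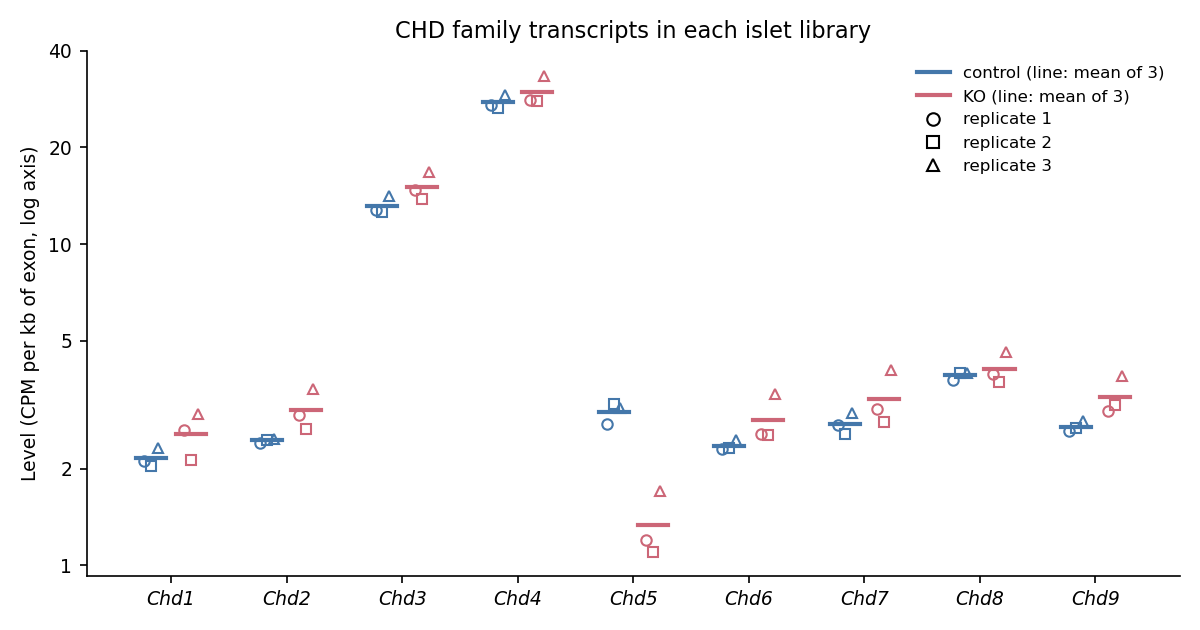
Level of each CHD gene in each library, in TMM-scaled CPM per kilobase of exon on a log axis; symbols are libraries and lines the means of 3 libraries per group. The Chd5 points of KO, from 1.10 to 1.70, all lie below those of the controls, from 2.75 to 3.17, while the triangle of KO 3 is the highest point of every other gene.

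Chd3 and Chd4, the other motors of NuRD, were the most abundant CHD transcripts. Chd4 (ENSMUSG00000063870.12, chromosome 6, 125095981 to 125130591) stood at 218, 213 and 233 CPM in controls 1, 2 and 3 and at 225, 224 and 267 CPM in KO 1, 2 and 3. The groups overlapped, with a log2 fold change of 0.11 (SE 0.11, 95% interval -0.14 to 0.36, edgeR adjusted p = 0.838). Chd3 (ENSMUSG00000018474.18, chromosome 11, 69343273 to 69369406) stood at 108, 106 and 119 CPM in controls and at 124, 117 and 141 CPM in KO. Here KO 2 lay below control 3, so the groups overlapped again, and the log2 fold change was 0.20 (adjusted p = 0.730, SE 0.11, 95% interval -0.04 to 0.44).

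Per kilobase of exon, Chd5 made up a small part of the transcripts of the NuRD motors, and its part was smaller in KO. It was 6.42%, 7.48% and 6.67% of the sum of Chd3, Chd4 and Chd5 in controls 1, 2 and 3, and 2.72%, 2.57% and 3.28% in KO 1, 2 and 3. The means were 6.86 ± 0.554% and 2.86 ± 0.375% (SD, n = 3 each). Chd4 took 63.1 ± 0.467% in controls and 64.5 ± 0.666% in KO, and Chd3 30.0 ± 0.382% and 32.7 ± 0.654%. Because these are shares of one sum, a smaller part of Chd5 raises the others by construction. Taken without Chd5, the part of Chd3 in the sum of Chd3 and Chd4 was 31.9%, 32.1% and 32.6% in controls and 34.4%, 33.1% and 33.4% in KO.

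**Figure D2:**
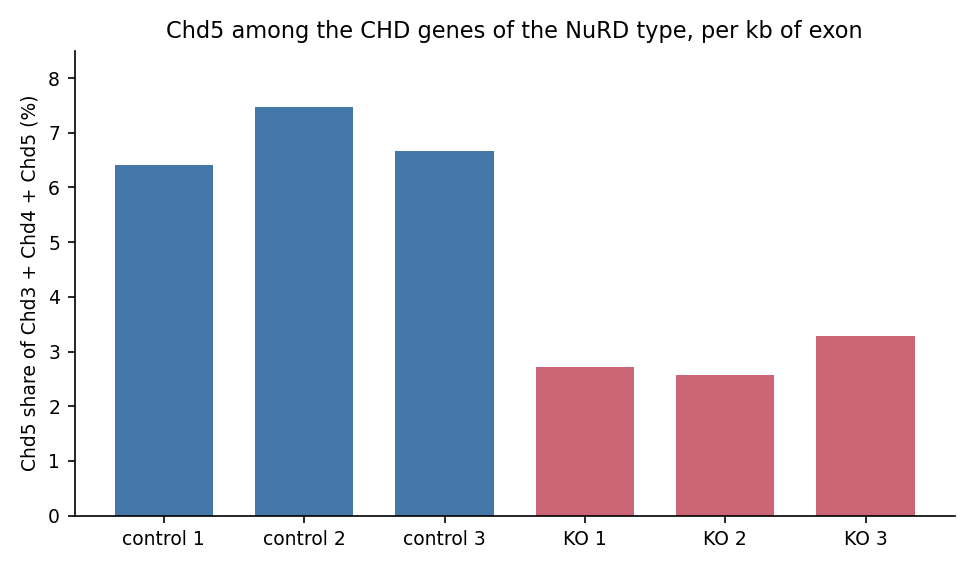
Share of Chd5 in the summed level of Chd3, Chd4 and Chd5 per kilobase of exon, in percent, with 1 bar per library. The 3 control bars stand between 6.42% and 7.48% and the 3 KO bars between 2.57% and 3.28%.

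Chd1 and Chd2, the class that acts with transcription, were higher in KO by small amounts that did not pass the test. Chd1 (ENSMUSG00000023852.14, chromosome 17, 15704967 to 15772610), whose chromodomains bind histone H3 trimethylated at lysine 4, stood at 18.4, 17.7 and 20.3 CPM in controls and 23.0, 18.5 and 25.7 CPM in KO. KO 2 lay among the controls, and the log2 fold change was 0.25 (edgeR adjusted p = 0.725, SE 0.13). Chd2 (ENSMUSG00000078671.11, chromosome 7, 73426638 to 73541830), a gene in which mutations cause epilepsy, stood at 34.3, 35.1 and 35.5 CPM in controls and 41.9, 38.1 and 50.4 CPM in KO. All KO libraries of Chd2 lay above all controls, but the log2 fold change of 0.31 (SE 0.11) had an edgeR adjusted p of 0.600. Exons of Chd2 overlap those of the transcript 1810026B05Rik on the same strand over 2030 bases, and that gene took 640 counts in the 6 libraries against 5088 for Chd2. How the overlap was counted is not given in the sources used here. By how much the overlap affects the level of Chd2 is not known.

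Chd6 to Chd9 gave small positive values as well. Chd9 (ENSMUSG00000056608.14, chromosome 8, 90828352 to 91054516) stood at 60.7, 61.7 and 65.3 CPM in controls and 69.9, 73.0 and 90.0 CPM in KO. Its groups did not overlap, and its log2 fold change was 0.31 (edgeR adjusted p = 0.600, SE 0.11). Chd6 (ENSMUSG00000057133.14, chromosome 2, 160946978 to 161109075) stood at 43.9, 44.0 and 46.9 CPM in controls and 49.0, 48.5 and 65.0 CPM in KO, also without overlap, at 0.27 (adjusted p = 0.689, SE 0.12). In both genes KO 3 was far above the other libraries.

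Chd7 (ENSMUSG00000041235.12, chromosome 4, 8690406 to 8867659), the gene mutated in CHARGE syndrome, stood at 37.8, 35.4 and 40.9 CPM in controls and 42.2, 38.5 and 55.9 CPM in KO. The groups overlapped and the log2 fold change was 0.26 (edgeR adjusted p = 0.730, SE 0.14). Chd8 (ENSMUSG00000053754.14, chromosome 14, 52198151 to 52257780), which binds beta-catenin and is known from autism genetics, stood at 62.5, 65.4 and 65.8 CPM in controls and 64.9, 61.6 and 76.3 CPM in KO. KO 2 was the lowest of the 6 libraries and KO 3 the highest, and the log2 fold change was 0.07 (adjusted p = 0.895, SE 0.10, 95% interval -0.16 to 0.29).

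As counts over the family, 1 of the 9 members passed the threshold, Chd5, lower in KO. Of all tested genes 0.0704% passed, 0.0633% lower and 0.00704% higher in KO, and nothing is read from this count because Chd5 chose the family. No overlap with KO above the controls occurred in 3 members, Chd2, Chd6 and Chd9, where 7.94% of tested genes showed it, and with KO below in 1, Chd5, where 5.94% did. The 8 members other than Chd5 all had positive values, from 0.07 to 0.31, with a median of 0.26 where that of all tested genes was -0.01. None of these 8 passed (edgeR adjusted p from 0.600 to 0.895), and 2 of them, Chd2 and Chd9, had an unadjusted p under 0.05 and were higher in KO, as were 4.83% of tested genes (7.37% in either direction). DESeq2 and limma-voom called none of the 8 either.

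The small positive values of those 8 members leaned on KO 3. It was the highest library in 8 of the 8, and it also had the highest share of ribosomal RNA. The share of all tested genes that were highest in KO 3 was not computed. Over the 6 libraries the log2 CPM of these 8 members moved together, with a Pearson r between pairs from 0.77 to 0.98. Their values are thus not 8 separate observations. Without KO 3 their median log2 fold change was 0.12, with 7 positive and Chd8 at -0.03. With the ribosomal RNA covariate the median was 0.09, with 6 positive and Chd4 and Chd8 at -0.02 each. Chd5 shifted downward as well in these fits, from -1.16 to -1.38 without KO 3 and to -1.36 with the covariate. Being negative already, its difference between the groups became larger.

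**Figure D3:**
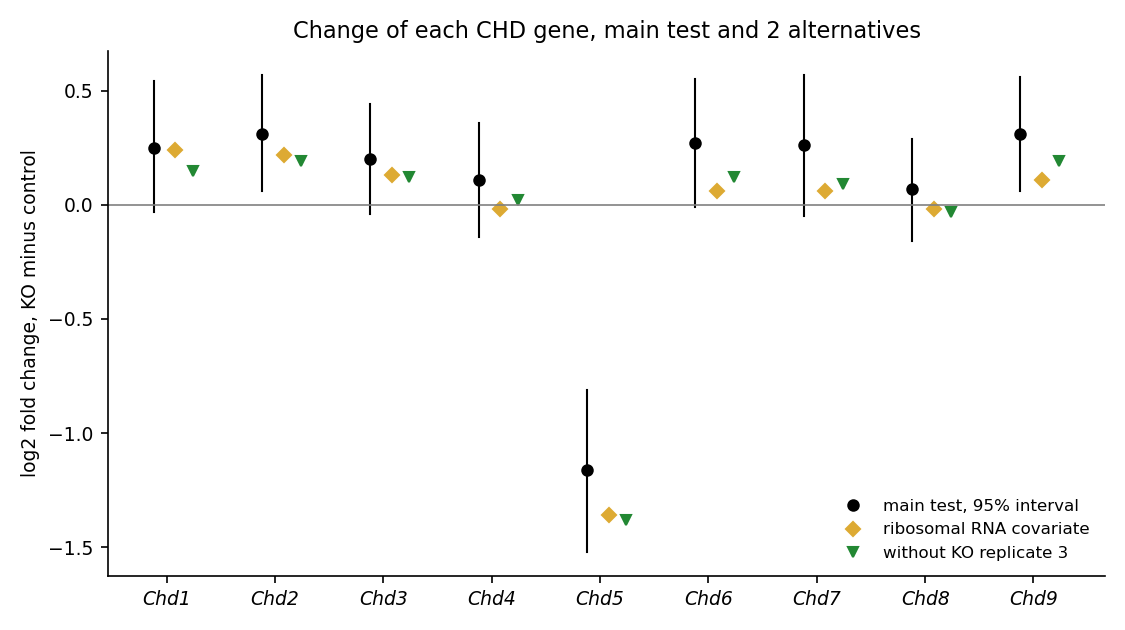
Log2 fold change of each CHD gene, KO minus control: black points with bars are the main test with its 95% interval, diamonds the fit with the ribosomal RNA covariate and triangles the fit without KO 3. Chd5 stays between -1.38 and -1.16 in these 3 fits, while the other 8 genes lie between -0.03 and 0.31.

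In the order of levels per kilobase, Chd4 led in controls at 27.6 ± 1.29 CPM per kb (SD, n = 3), followed by Chd3 at 13.1 ± 0.812 and Chd8 at 3.91 ± 0.110. Below them came Chd5 at 3.0 ± 0.223, Chd7 at 2.76 ± 0.202 and Chd9 at 2.7 ± 0.103, neighbours whose control libraries overlapped in level. Chd2 at 2.45 ± 0.0416 and Chd6 at 2.35 ± 0.0903 overlapped as well. Chd1 was the lowest at 2.15 ± 0.152, with its highest control library at 2.32 and the lowest of Chd6 at 2.30. In KO the order of the first 3 was the same, at 29.8 ± 3.09, 15.1 ± 1.51 and 4.09 ± 0.465. Chd9 at 3.35 ± 0.467, Chd7 at 3.30 ± 0.667 and Chd2 at 3.04 ± 0.443 came next, then Chd6 at 2.84 ± 0.492 and Chd1 at 2.57 ± 0.414, all within their spread of a neighbour. Chd5 was now the lowest member, at 1.33 ± 0.322. The length used is that of all merged exons of a gene, 23148 bases for Chd9 and 9583 for Chd5. The transcripts of these genes shown above around the DEAH box measure 12008 and 9486 bases. A gene whose merged exons far exceed its transcript is placed lower per kilobase, so the order below Chd8 depends on the length used. Levels by transcript length were not computed. The sum of the 8 members without Chd5 was 56.0, 55.1 and 60.2 CPM per kb in controls and 60.9, 58.7 and 72.5 in KO, so that only KO 1 and KO 3 lay above all controls. In bulk islets, fewer cells of a type and less RNA per cell cannot be told apart, for Chd5 as for any other gene here.

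Marker sums of the cell types that could carry Chd5 overlapped between the groups. The summed level of 10 beta-cell markers ran from 96289 to 125607 CPM in controls and from 104382 to 148019 in KO, with 0 of 10 past the threshold, and that of 6 alpha-cell markers from 13827 to 18380 and from 15990 to 16834, with 0 of 6. The 8 markers of peripheral neurons, of which 6 were tested and 0 passed, summed to between 102 and 129 CPM in controls and between 93.4 and 135 in KO. The 5 Schwann cell markers summed to between 7.70 and 11.1 CPM and between 7.36 and 14.1. KO 2, the library with the lowest Chd5 level, was also the lowest of the 6 in both of these sums and in those of fibroblasts, endothelial cells and macrophages. Fibroblast markers, 7 of 7 with negative values, summed to 144 to 286 CPM in controls and 44.7 to 224 in KO. This list includes Pdgfra, the floxed gene itself. Endothelial markers, 6 of 6 negative, summed to 391 to 478 CPM and 257 to 488, and macrophage markers, 5 of 6 negative, to 88.3 to 99.9 CPM and 79.1 to 92.9. None of these markers passed the threshold. Negative values were not particular to these lists. They occurred in 14 of 14 acinar, 4 of 4 delta and 5 of 6 duct markers, and in 52.2% of all tested genes. In the beta, alpha and Schwann lists 3 of 10, 3 of 6 and 1 of 5 were negative, and 1 of 2 in the PP list and 3 of 6 in the neuron list. Across the 6 libraries the fibroblast, endothelial and macrophage sums had a Pearson r with Chd5 of 0.60, 0.54 and 0.59. The acinar, delta and duct sums had an r of -0.02, 0.16 and 0.34. For the beta, alpha and PP sums r was -0.36, 0.11 and 0.17, and for the Schwann and neuron sums -0.05 and 0.19. These r share libraries and scaling. Without KO 2 the log2 fold change of Chd5 was -1.05. That fit leaves out a whole library and does not separate its cell types. The part of fibroblasts, endothelial cells and macrophages in the Chd5 value was not tested. No marker in any of the 11 lists was at 0 in all libraries.

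No gene of the neuroendocrine list passed the threshold with edgeR. Of 29 neuroendocrine genes, which islet cells share with neurons, 28 were tested and 0 passed (2 at an unadjusted p under 0.05, both higher in KO, against 4.83% of all tested genes), 17 with positive and 11 with negative values and a median of 0.05. The lowest p values belonged to genes with positive values, all of which encode zinc finger transcription factors of one family. Myt1l had a log2 fold change of 0.33 (edgeR adjusted p = 0.600, SE 0.12), St18 of 0.24 (adjusted p = 0.633, SE 0.09) and Myt1 of 0.26 (adjusted p = 0.706, SE 0.13). Rest, the repressor of neuronal genes, had a value of 0.26 (adjusted p = 0.803, SE 0.22).

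The partners of Chd3, Chd4 and Chd5 in NuRD were all measured, and 0 of the 12 passed (edgeR, 1 at an unadjusted p under 0.05 and lower in KO, where 2.54% of all tested genes are), 5 with positive and 7 with negative values and a median of -0.02. Mbd3, the methyl-CpG-binding-domain subunit, had the smallest p. Its levels were 38.6, 38.3 and 37.3 CPM in controls and 30.6, 31.6 and 31.5 CPM in KO, with no overlap and little spread in either group, at a log2 fold change of -0.28 (edgeR adjusted p = 0.515, SE 0.08). Gatad2b, a scaffold subunit, stood at 0.26 (adjusted p = 0.689, SE 0.12) and was highest in KO 3, like the CHD genes other than Chd5. The deacetylase Hdac2 stood at -0.17 (adjusted p = 0.730, SE 0.09), its relative Hdac1 at -0.11 (SE 0.10) and the histone-binding Rbbp4 at -0.03 (SE 0.10). The Mta subunits, around which NuRD is built, had values of 0.03 for Mta1, -0.01 for Mta2 and 0.09 for Mta3.

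Of 11 other partners of CHD proteins, 10 were tested and 0 passed (0 at an unadjusted p under 0.05), 5 positive and 5 negative with a median of -0.01. Rtf1, of the elongation complex that works with Chd1, had a value of 0.14 (edgeR adjusted p = 0.756, SE 0.09). Supt16, of the histone chaperone FACT, had a value of 0.17 (adjusted p = 0.777, SE 0.12), and Ash2l, of the histone H3 lysine 4 methyltransferases, 0.10 (adjusted p = 0.830, SE 0.09). Adnp, the partner of Chd4 in the ChAHP complex, was low, with a control mean of 1.89 ± 0.505 CPM and a KO mean of 1.70 ± 0.228 (SD, n = 3 each).

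The other families of remodellers were measured beside the CHD genes, and none of their tested members passed with edgeR, DESeq2 or limma-voom. Among subunits of the BAF complexes 0 of 26 passed (1 at an unadjusted p under 0.05, higher in KO, against 4.83% of all tested genes), with 17 positive and 9 negative values and a median of 0.04. Arid1a, a large DNA-binding subunit, had a value of 0.33 (edgeR adjusted p = 0.633, SE 0.13), Arid2 one of 0.32 (SE 0.14), Ss18l1 one of 0.38 (SE 0.18) and the motor Smarca4 one of 0.08 (adjusted p = 0.869, SE 0.10). Among ISWI remodellers 0 of 11 passed (2 at an unadjusted p under 0.05, both higher, against the same 4.83%), 8 positive and 3 negative with a median of 0.07, including Rsf1 at 0.34 (adjusted p = 0.628, SE 0.13), Baz2b at 0.27 (SE 0.12), Bptf at 0.27 (SE 0.13) and the motor Smarca5 at -0.03 (SE 0.09). Among INO80 and SRCAP subunits 0 of 20 passed (1 at an unadjusted p under 0.05, also higher), 11 positive and 9 negative with a median of 0.02, including Ino80d at 0.52 (adjusted p = 0.624, SE 0.19) and the motors Ino80 at 0.27 (SE 0.12) and Ep400 at 0.30 (SE 0.14).

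Of 16 further ATPases of the SNF2 type, 13 were tested and 0 passed (3 at an unadjusted p under 0.05, all higher in KO, against 4.83% of all tested genes), 9 positive and 4 negative with a median of 0.13. The DNA repair factor Ercc6 stood at 11.2, 11.5 and 10.6 CPM in controls and 13, 13.3 and 18.6 CPM in KO, a log2 fold change of 0.44 (edgeR adjusted p = 0.597, SE 0.15). Rad54l2 and Shprh had values of 0.30 (SE 0.12) and 0.31 (SE 0.12). Chd1l, a motor related to the CHD family but without chromodomains, had a value of -0.10 (adjusted p = 0.888, SE 0.14). KO 3 was the highest library of Ercc6, Rad54l2, Shprh, Arid1a, Rsf1, Ino80d and Ep400, as it was of the CHD genes other than Chd5.

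**Figure D4:**
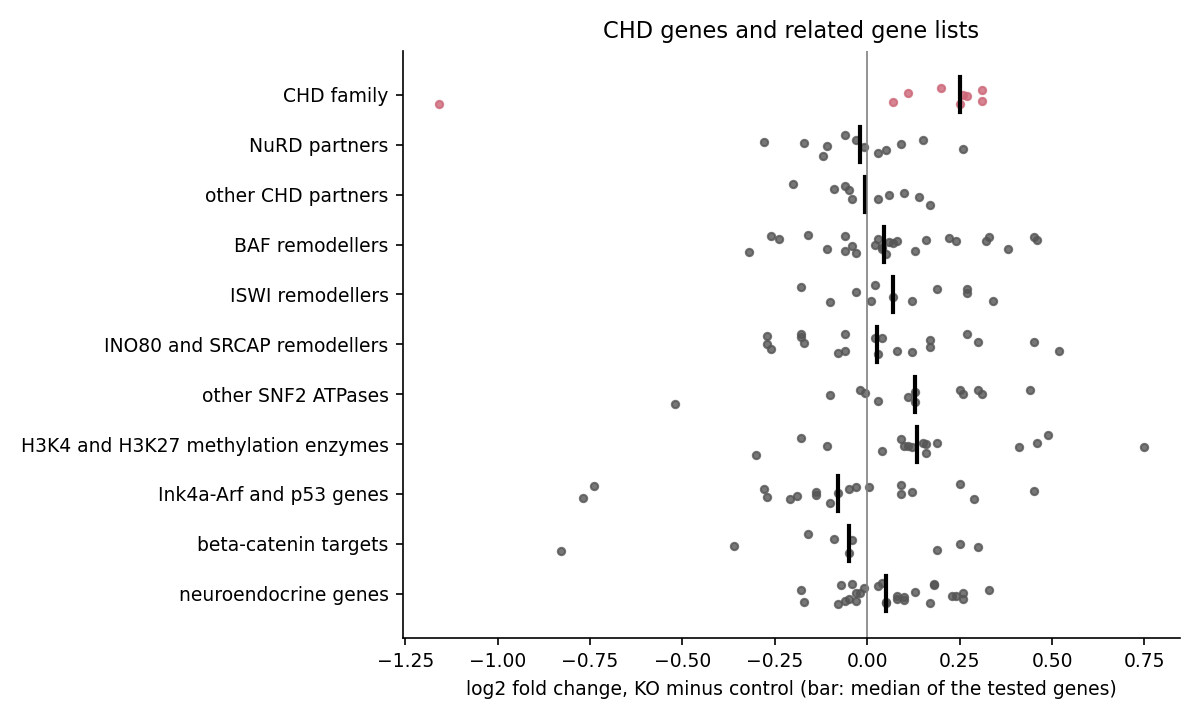
Log2 fold changes, KO minus control, of the CHD family and 10 related gene lists; each point is a tested gene and each bar the median of its list. Chd5 is the point at -1.16 in the top row, and the medians of the other lists lie between -0.08 and 0.14.

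Genes of enzymes that write and erase methylation of histone H3 at lysines 4 and 27, and of subunits of their complexes, were all tested. CHD proteins read or avoid these marks, and 0 of the 16 genes passed. At an unadjusted p under 0.05 there were 4 higher and 1 lower in KO, against 4.83% and 2.54% of all tested genes. Of the 16 genes 13 had positive and 3 negative values, with a median of 0.14. Jarid2, a subunit of the Polycomb complex PRC2, stood at 14.7, 13 and 14.7 CPM in controls and 17.9, 18.7 and 21.5 CPM in KO. The groups did not overlap, and the log2 fold change was 0.46 (edgeR adjusted p = 0.392, SE 0.11). The lysine 4 methyltransferase Kmt2d stood at 59.0, 57.9 and 59.9 CPM in controls and 61.6, 90.2 and 144 CPM in KO, at 0.75 (adjusted p = 0.591, SE 0.25). Its KO libraries were ordered as their ribosomal RNA shares were, and with that covariate the value was -0.12 (SE 0.26). Kmt2a, of the same family, had a value of 0.49 (adjusted p = 0.591, SE 0.16).

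Chd5 is known to act on the Cdkn2a locus, which encodes p16Ink4a and p19Arf, and through the latter on p53. Cdkn2a was too low to be tested, with a control mean of 0.281 ± 0.046 CPM and a KO mean of 0.343 ± 0.189 (SD, n = 3 each), and Trp53 had a log2 fold change of -0.08 (edgeR adjusted p = 0.896, SE 0.12). Of the 20 genes of this axis 19 were tested and 0 passed with edgeR, 7 positive and 12 negative with a median of -0.08. At an unadjusted p under 0.05 there were 4 lower and 1 higher in KO, where the shares over all tested genes were 2.54% and 4.83%. Plk3, a stress-induced kinase, stood at 18.5, 17 and 14.8 CPM in controls and 11.3, 9.11 and 8.71 CPM in KO, at -0.77 (adjusted p = 0.132, SE 0.14), and passed with DESeq2 at -0.78 (adjusted p = 0.00560). The cell-cycle inhibitor Cdkn1a had a value of -0.74 (adjusted p = 0.427, SE 0.18) and Trp53inp1, a p53 target, one of 0.45 (adjusted p = 0.515, SE 0.13). Of 14 genes of beta-catenin signalling, which Chd8 restrains, 9 were tested and 0 passed (1 at an unadjusted p under 0.05, lower in KO, against 2.54% of all tested genes), 3 positive and 6 negative with a median of -0.05. Ccnd1, which encodes cyclin D1, stood at 104, 111 and 109 CPM in controls and 77.3, 89.9 and 84.2 CPM in KO, at -0.36 (adjusted p = 0.460, SE 0.09), and Tcf7 and Znrf3 had values of -0.83 (SE 0.40) and 0.30 (SE 0.15).

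No gene beside Chd5 on chromosome 4 passed the threshold with edgeR. Within 500 kb on either side the table lists 28 genes, of which 13 were tested and 0 passed (1 at an unadjusted p under 0.05, lower in KO, against 2.54% of all tested genes), 4 positive and 9 negative with a median of -0.05. The nearest tested gene before Chd5 was Rpl22 (152325742 to 152334071), a ribosomal protein gene whose end lies 4579 bases from the start of Chd5, with a log2 fold change of -0.25 (edgeR adjusted p = 0.755, SE 0.16). The nearest after it was Kcnab2 (152390742 to 152477910), a potassium channel subunit on the opposite strand whose end lies 547 bases from that of Chd5, at 0.09 (adjusted p = 0.956, SE 0.35). It had only 290 counts in the 6 libraries, and its sign turned when control 2 or KO 3 was left out. The smallest p belonged to Gpr153, an orphan receptor gene (152274232 to 152285337), at 2.57, 2.39 and 1.68 CPM in controls and 1.32, 0.873 and 1.52 CPM in KO, with a log2 fold change of -0.77 (adjusted p = 0.624, SE 0.29). Acot7, an acyl-CoA thioesterase gene, had a value of -0.53 (adjusted p = 0.730, SE 0.28) and Plekhg5 one of -0.33 (adjusted p = 0.744, SE 0.19). Inside Chd5, the transcript Gm13645 runs on the opposite strand and overlaps its exons over 101 bases. It had 24 counts in all against 2629 for Chd5, and the strand setting of the counting is not given in the sources used here.

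Across the 6 libraries, the genes whose log2 CPM followed Chd5 most closely were B3galt1, a galactosyltransferase gene (Pearson r = 0.995), Gm14403 (0.98), Kcnf1, a modulatory potassium channel subunit (0.97), Clic4, a chloride intracellular channel gene (0.97), and Gm14325 (0.97), out of 11665 genes with a symbol and a mean log2 CPM of at least 1. These r share libraries, scaling and the difference between the groups, and 0.574% of the genes had an r above 0.9. Of the 5 genes, Kcnf1 passed the threshold, at a log2 fold change of -2.19 (edgeR adjusted p = 0.0122, SE 0.22). B3galt1 stood at 3.85, 3.84 and 3.89 CPM in controls and 2.56, 2.50 and 3.01 CPM in KO, and like Chd5 was highest of the KO libraries in KO 3. After the group means were taken out, 5.48% of genes had an r above 0.9 with Chd5, and the 5 highest were Afap1 (1.00), Zyg11b (0.999), Fbxl17 (0.998), Trp53bp2 (0.998) and Tmtc2 (0.997). No gene was in both sets.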

How the data were processed

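Islet RNA was measured in 3 control and 3 KO libraries made with an mRNA kit, as the labels' protocols state. The authors deposited raw counts per gene for each library, with the exon length of each gene. The submitters' processing notes name STAR 2.7.9, featureCounts 2.0.0, GRCm38.p6 and mm10. Not given in the sources used here: which annotation release was counted, whether strand was used and how multi-mapping reads were handled. A suffix of unstated meaning ends the column names of the 3 KO libraries and of 0 controls. Symbols came from a gene name table (54349 of 55401 identifiers matched with their version), positions from the count table, transcripts from GENCODE vM21.

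The main test was edgeR 4.0.16 (quasi-likelihood, R 4.3.3) with TMM factors and genotype as the only term, on genes kept by filterByExpr (minimum count 10, minimum total 15). P-values were two-sided and adjusted by Benjamini-Hochberg over 14212 genes. Standard errors are the log2 fold change divided by the root of the F statistic. Levels are CPM scaled by TMM factors, divided by exon length where genes are compared. Alternatives were RLE factors, no filter, a replicate block, each library left out, acinar and ribosomal RNA covariates, DESeq2 1.42.0 and limma-voom (limma 3.58.1). The test script was tested on simulated data with true absolute log2 fold changes of 1 and 2, of which 70.1% and 98.8% were recovered. Of the calls 5.88% were false. Smaller changes were not simulated, so a gene that did not pass is not shown to be unchanged. No pair of libraries in a group agreed within sampling noise (chi-square per degree of freedom at least 43.6).

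The family, gene lists, tests and alternatives were chosen with earlier results of these data known. Named genes were all members, the 3 tested genes with the smallest p of each list, list genes past the threshold, the nearest tested neighbours of Chd5 and the 5 genes most like it by either measure. Other genes named (Rest, Hdac1, Rbbp4, Mta1, Mta2, Mta3, Adnp, Smarca4, Smarca5, Chd1l, Cdkn2a, Trp53 and genes overlapping a member) were added for their role, after values were seen.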

Additional observations from a re-analysis of the deposited data

How the results depend on the processing

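The log2 fold change of Chd5 was negative in all 13 alternatives, from -1.38 to -1.05. It no longer passed with limma-voom (-1.18, adjusted p = 0.0543), with the ribosomal RNA covariate (-1.36, adjusted p = 1.00) or with 5 of the 6 libraries left out in turn (-1.22 to -1.05), so that 0 members passed in those fits and 1 in the others. With a library left out the number of members past the threshold ranged from 0 to 1 and that of all genes from 2 to 6, where fewer samples enter. The count over all genes was 10 with RLE factors, 300 without the filter on low counts, 48 with the acinar covariate, 48 with DESeq2, 6 with limma-voom and 0 with the ribosomal RNA covariate (214 at an unadjusted p under 0.05). The cause of these shifts was not tested. RLE factors left the median of all genes at -0.01. Without the filter, 1 INO80 or SRCAP gene, 2 genes of the methylation list and 3 genes of the p53 axis passed. The p53 axis had 1 gene past the threshold, Plk3, with the replicate block, the acinar covariate and DESeq2.

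With the ribosomal RNA covariate the sign turned for Chd4 (-0.02), Chd8 (-0.02), Supt16 (-0.14), Arid2 (-0.06), Kmt2d (-0.12), Znrf3 (-0.11), Kcnab2 (-0.23), Afap1 (-0.20), Trp53bp2 (-0.01) and Tmtc2 (-0.03), and Arid1a (-0.003) and Ep400 (-8.4e-05) came to about no difference. Without KO 3 it turned for Chd8 (-0.03), Kcnab2 (-0.34), Afap1 (-0.23), Trp53bp2 (-0.01) and Tmtc2 (-0.06). Over the libraries left out in turn, the highest values were 0.13 for Chd8, 0.34 for Kcnab2, 0.32 for Afap1, 0.05 for Trp53bp2 and 0.13 for Tmtc2. Kcnab2 also turned without control 2 (-0.02) and with the acinar covariate (-0.04). Not divided by exon length, Chd5 made up 4.60% of the family sum in controls, and 7.96% in controls and 3.34% in KO of the sum of Chd3, Chd4 and Chd5.

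Replicate numbers in the titles were not shown to pair the libraries. The deviations from the group means had correlations of 0.16, -0.16 and 0.14 within numbers 1, 2 and 3, and not every library correlated best with its own number. With the replicate block 36 genes passed, and Chd5 stood at -1.18 (adjusted p = 0.0119). The call of Chd5 rests on 169 to 897 counts per library, and 3 libraries a group set its precision.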
